A study of Mus musculus with 8 samples.

Results

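The genes described here encode the T cell receptor (TCR) complex and its proximal signalling machinery, measured in CD4 single-positive (CD4SP) thymocytes. A list of 40 such genes was used. A gene was represented by the brightest probe set that carried its symbol and no other, which was found for 37 of the 40, out of 22180 genes so represented on the array. All 37 passed the filter on low signal and were tested. Cd247, Lck and Gads had no such probe set in the annotation used and were not analysed here under these symbols, while Grap2, the current symbol of the gene once called Gads, is given with the further pathway genes. The members were divided by role into 26 positive components (23 tested), 12 negative regulators (12 tested) and 2 genes that act both ways, Ptprc and Sh2d2a.

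The series holds 8 arrays of sorted CD4SP thymocytes on a C57BL/6 background, 4 with the genotype Pggt1b_KO (KO) and 4 WT, and no further treatment is labelled. Pggt1b encodes the beta subunit of the enzyme that attaches a mevalonate-derived geranylgeranyl lipid to small GTPases, and the study concerns the exit of thymocytes from the thymus. The sources used here do not state the allele, any recombinase, or the age and sex of the mice. Nothing says that the replicates were separate animals, so the spread behind each p-value may be technical. Pggt1b stood at 7.89, 7.57, 7.69 and 7.86 log2 in KO and at 8.35, 8.38, 8.29 and 8.36 in WT, lower in every KO array, and the place of its probes relative to the deleted part is not known here. Each value is a log2 signal of the robust multi-array average (RMA), a normalized intensity on which 1 unit is a doubling. Levels of different genes are not comparable on this scale.

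Peptide and MHC on another cell engage the TCR, whose CD3 and zeta chains carry tyrosine motifs that the kinases LCK and FYN phosphorylate. ZAP70 binds these motifs and phosphorylates the scaffolds LAT and SLP-76, on which phospholipase C gamma 1 (PLCG1) makes diacylglycerol and inositol trisphosphate. Diacylglycerol feeds RASGRP1 and protein kinase C theta, inositol trisphosphate feeds calcium entry, calcineurin and NFAT, and phosphatases, ubiquitin ligases and diacylglycerol kinases restrain the cascade. In the thymus the strength of this signal decides positive and negative selection, and CD4SP cells are those that have passed positive selection.

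Promoter sequences were available for some of the members at the centre of these results. Sla, which is called lower in KO, had no entry. The table of RefSeq promoters on GRCm38.p6 spans from 250 bases before a start site to 50 bases after it, and 32 of the 40 genes matched with 47 windows. Sit1 and Csk are shown because they are called lower in KO, and Cd3d, Cd3g and Cd3e because they encode the receptor chains that were not called. Each window is written 5′ to 3′ on the strand of its gene, and capitals mark CAGGTG or its reverse complement CACCTG, an E-box of the kind bound by E proteins, which are basic helix-loop-helix factors of thymocyte development.
Sit1, chr4:43483660-43483959, minus strand: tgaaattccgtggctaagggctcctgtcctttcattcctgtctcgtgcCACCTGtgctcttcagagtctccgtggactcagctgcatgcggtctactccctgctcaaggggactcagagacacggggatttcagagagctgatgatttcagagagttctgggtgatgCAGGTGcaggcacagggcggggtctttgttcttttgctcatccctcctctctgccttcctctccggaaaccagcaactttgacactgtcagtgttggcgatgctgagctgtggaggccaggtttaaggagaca
Csk, chr9:57653582-57653881, minus strand: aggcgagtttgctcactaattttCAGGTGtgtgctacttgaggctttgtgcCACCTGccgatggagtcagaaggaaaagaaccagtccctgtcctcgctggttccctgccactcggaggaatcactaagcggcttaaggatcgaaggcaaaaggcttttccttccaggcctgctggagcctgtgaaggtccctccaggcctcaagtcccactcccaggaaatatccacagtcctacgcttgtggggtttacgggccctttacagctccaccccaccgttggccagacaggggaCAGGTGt
Cd3d, chr9:44981536-44981835, plus strand: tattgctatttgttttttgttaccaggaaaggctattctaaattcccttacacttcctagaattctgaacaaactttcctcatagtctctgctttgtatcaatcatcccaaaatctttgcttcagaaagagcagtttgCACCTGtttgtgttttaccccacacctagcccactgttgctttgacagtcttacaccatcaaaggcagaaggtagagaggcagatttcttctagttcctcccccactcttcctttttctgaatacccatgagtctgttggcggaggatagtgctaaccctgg
Cd3g, chr9:44980382-44980681, minus strand: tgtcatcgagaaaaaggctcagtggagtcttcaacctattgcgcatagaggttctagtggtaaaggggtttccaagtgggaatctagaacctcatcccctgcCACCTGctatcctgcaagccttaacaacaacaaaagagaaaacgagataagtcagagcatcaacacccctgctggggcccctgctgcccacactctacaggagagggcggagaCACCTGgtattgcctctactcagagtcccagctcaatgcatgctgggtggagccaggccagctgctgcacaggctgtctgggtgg
Cd3e, chr9:45009562-45009861, minus strand: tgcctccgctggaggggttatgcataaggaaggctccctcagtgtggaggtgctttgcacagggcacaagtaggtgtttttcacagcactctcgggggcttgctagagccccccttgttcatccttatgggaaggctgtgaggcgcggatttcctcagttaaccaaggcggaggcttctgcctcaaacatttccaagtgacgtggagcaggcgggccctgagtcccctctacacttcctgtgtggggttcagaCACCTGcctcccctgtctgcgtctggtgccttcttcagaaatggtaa
The Csk window is the upstream one of 2 start sites, and the window of the other start site holds neither CAGGTG nor CACCTG. The start sites of Cd3d and Cd3g lie 1355 bases apart on chromosome 9 and point away from each other. Other E-box sequences were not searched, and the motif CAGGTG was singled out after these sequences had been read. On either strand it occurred in 17 of 47 windows of members (36.2%), among them the 5 shown, and in 20.2% of all 32851 windows in the table. It occurred in none of the 4 windows of Dgka, the member that is called higher, and Sla, called lower, had no window to search. The other motifs searched were CCGGAA (ETS; 10.6% of member windows and 14.9% of all windows), TGTGGT (RUNX; 12.8% and 16.8%), GGAAAA (NFAT; 14.9% and 23.4%), TAAACA (FOXO; 8.51% and 13.4%) and CACACCC (KLF; 21.3% and 7.95%), each on either strand. Matches to CCGGAA and GGAAAA can share letters. These shares are descriptions of letters in a window, and windows of the same gene are not independent.

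KO was compared with WT to ask whether transcripts of the receptor and its signalling chain differ when Pggt1b is targeted. Of the 37 tested members 4 changed, all negative regulators. Sit1, Csk and Sla were lower and Dgka higher in KO, by 1.13-fold to 1.17-fold. None of the 23 positive components and neither of the 2 genes that act both ways was called. A member is called at a Benjamini-Hochberg adjusted p under 0.05 in a limma fit over 11585 genes. Over all of these genes 13.0% were called, 4.45% higher and 8.53% lower, against 10.8% of the members. The members as a whole were therefore called about as often as other genes, and the 4 calls among 12 negative regulators were not tested against that background. At an unadjusted p under 0.05 stood 7 of the 23 positive components, 5 higher and 2 lower, and 29.2% of all tested genes.

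**Figure D1:**
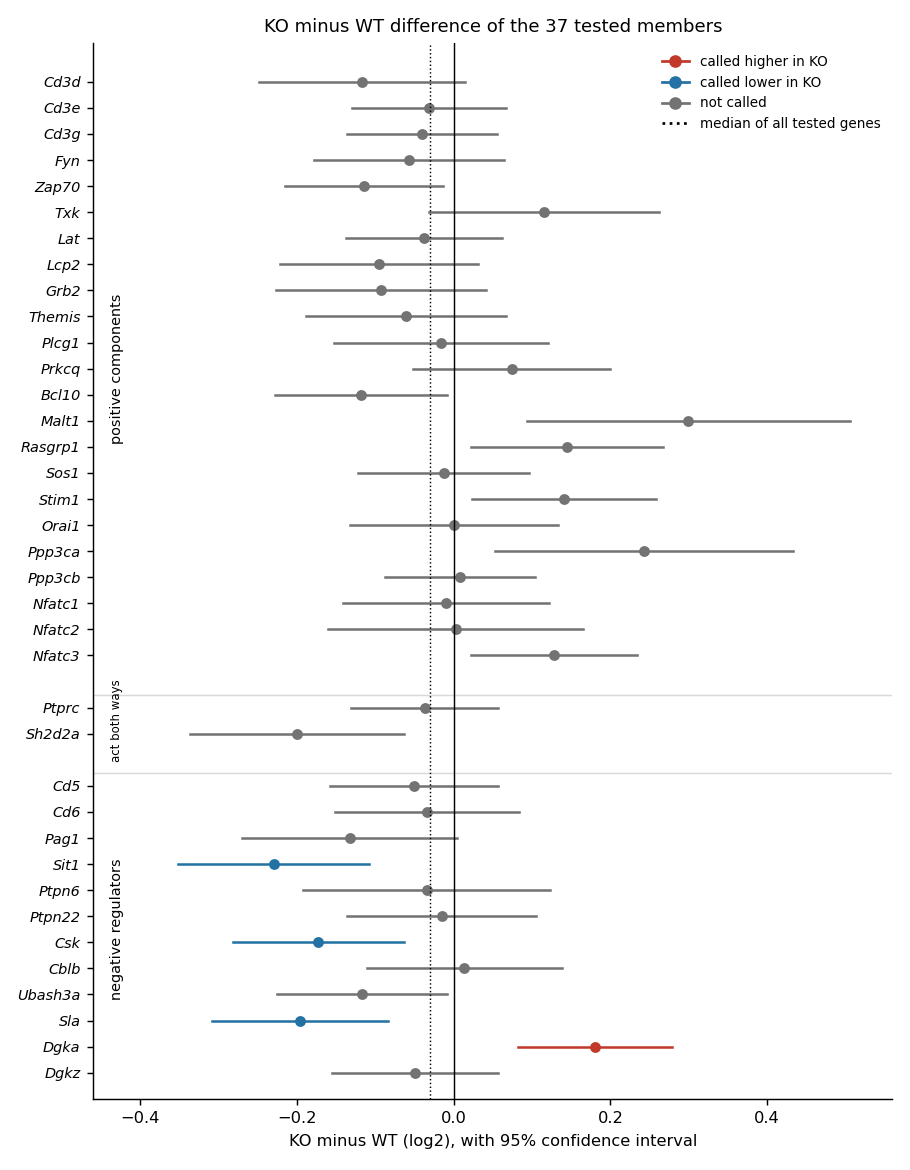
KO minus WT difference on the log2 scale (horizontal axis) of each tested member (vertical axis), grouped by role, with the 95% confidence interval as a line. Dgka lies to the right and Sit1, Csk and Sla to the left of 0, and the dotted line marks the median of all tested genes at -0.03.

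The median size of the KO minus WT difference, without its sign, was 0.074 log2 over the members and 0.095 over all tested genes. The median SD between arrays of the same genotype was 0.066 log2 over the members and 0.098 over all tested genes, and the members were also brighter, with a median level of 11.01 log2 against 8.18. Ptprc had the least variable signal of the members, at an SD of 0.019, and Malt1 the most variable, at 0.15.

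Sit1 encodes a transmembrane adaptor that recruits phosphatases and dampens TCR signals (probe set 17424621). Its log2 signal was 11.13, 11.20, 11.31 and 11.28 in KO and 11.44, 11.47, 11.52 and 11.41 in WT. Every KO array lay below every WT array. Sit1 averaged 11.23 ± 0.081 in KO and 11.46 ± 0.045 in WT (SD, n = 4 each) and fell by 14.7% (log2 -0.23 ± 0.055 SE, limma adjusted p = 0.0249). Omitting KO1, KO2, WT2 or WT3 (replicate numbers) ended this call, at an adjusted p of at most 0.0688.

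Csk encodes the kinase that phosphorylates the inhibitory tyrosine of LCK and FYN and so holds them inactive (probe set 17527565). It stood at 11.07, 11.06, 11.14 and 11.20 log2 in KO and at 11.31, 11.32, 11.26 and 11.27 in WT. The genotypes did not overlap. The means were 11.12 ± 0.065 in KO and 11.29 ± 0.028 in WT (SD, n = 4 each), and Csk fell by 11.3% (log2 -0.17 ± 0.049 SE, limma adjusted p = 0.0456). Csk kept its call only when KO4 was the array omitted, and each of the other 7 omissions gave an adjusted p between 0.0734 and 0.118. A second quantile normalization ended it too (adjusted p = 0.0677). Pag1, the membrane adaptor that brings CSK to the plasma membrane, stood at 9.58, 9.49, 9.55 and 9.65 log2 in KO and at 9.82, 9.74, 9.61 and 9.64 in WT. Its ranges overlapped and it was not called (log2 -0.13, limma adjusted p = 0.184).

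Sla encodes SLAP, an adaptor that promotes the turnover of the TCR complex in thymocytes together with the ubiquitin ligase CBL (probe set 17317637). Its log2 signal was 10.91, 10.84, 10.75 and 10.84 in KO and 11.01, 10.99, 11.07 and 11.05 in WT, again without overlap. Sla averaged 10.83 ± 0.066 in KO and 11.03 ± 0.038 in WT (SD, n = 4 each) and fell by 12.7% (log2 -0.20 ± 0.050 SE, limma adjusted p = 0.0326). Sla lost its call on omission of KO2, KO3, KO4, WT2, WT3 or WT4, with 0.0853 as the highest adjusted p. Cblb, a ubiquitin ligase that sets the threshold of T cell activation, differed by 0.014 log2 (limma adjusted p = 0.899). Ubash3a, a phosphatase family member that restrains TCR signalling, had every KO array below every WT array but was not called (log2 -0.12, limma adjusted p = 0.145).

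Dgka was the only member called higher (probe set 17246310). It encodes diacylglycerol kinase alpha, which converts diacylglycerol to phosphatidic acid and so ends the signal to RASGRP1. Its log2 signal was 12.83, 12.76, 12.81 and 12.75 in KO and 12.62, 12.60, 12.59 and 12.62 in WT. All KO arrays lay above all WT arrays. Dgka averaged 12.79 ± 0.042 in KO and 12.61 ± 0.015 in WT (SD, n = 4 each), 1.13-fold higher in KO (log2 0.18 ± 0.044 SE, limma adjusted p = 0.0278). Dgka was not called on omission of KO1, KO3, WT2 or WT3, with 0.0795 as the highest adjusted p, nor with each array centred on its median (adjusted p = 0.0663). The related kinase Dgkz stood at 10.60, 10.51, 10.62 and 10.61 log2 in KO and at 10.64, 10.65, 10.68 and 10.58 in WT, with overlapping ranges (log2 -0.05, limma adjusted p = 0.536). A dimmer second probe set of Dgkz averaged 7.72 in KO and 7.99 in WT, a larger difference of -0.27 log2.

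**Figure D2:**
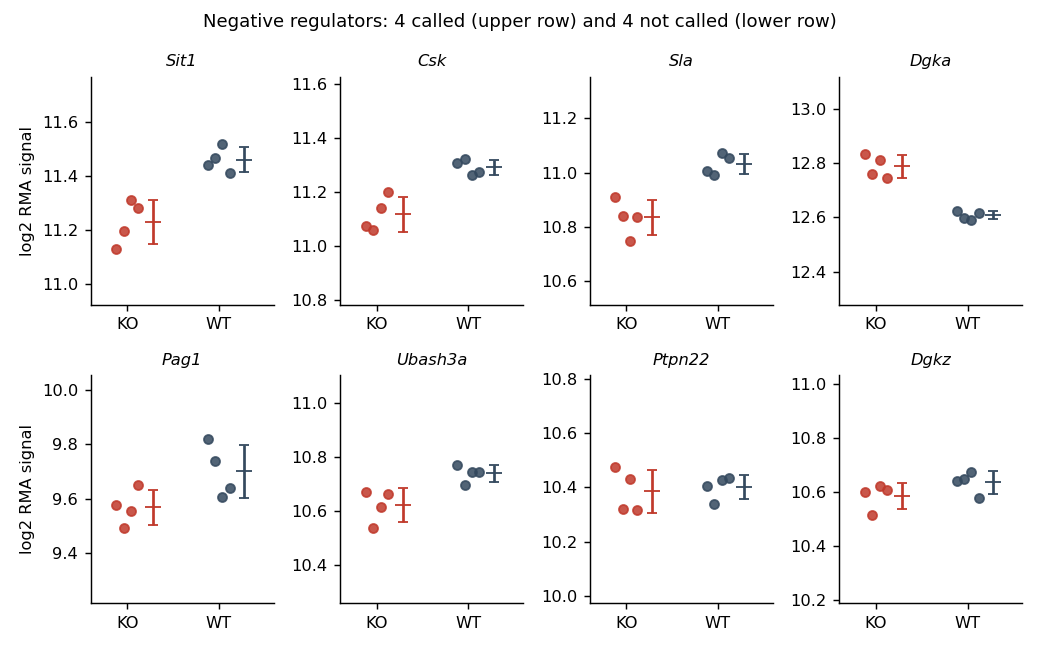
Log2 RMA signal (vertical axis) of 8 negative regulators in the 4 KO and 4 WT arrays (points), with the mean and SD as bars, each panel spanning the same range of signal. The genotype means of Sit1, Csk, Sla and Dgka differ by 0.17 to 0.23 log2. These genes and Ubash3a show no overlap between the genotypes.

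Whether related genes differed unequally was examined for 5 pairs, chosen after the data were seen. The KO minus WT difference of Dgka exceeded that of Dgkz by 0.23 log2 (two-sided exact permutation p = 0.0286, the smallest that 4 against 4 arrays allow, and 0.0714 adjusted over the 5 pairs). The difference of Stim1 exceeded that of Stim2, a second calcium sensor of the endoplasmic reticulum, by 0.32 log2 (exact permutation p = 0.0286, adjusted 0.0714). Ppp3ca against Ppp3cb and Sla against Sla2 both gave an exact permutation p of 0.0571, and Ubash3a against Ubash3b gave 0.0857. After adjustment none of the 5 passed 0.05. Dgka against Dgkz and Stim1 against Stim2 already stood at the smallest possible p, and adjustment still put them at 0.0714. With so few arrays the adjusted test could not separate a single pair, so no conclusion is drawn from it.

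The remaining negative regulators were not called. Cd5 and Cd6, scavenger receptor family members that dampen TCR signals, differed by -0.05 and -0.03 log2. Ptpn6, which encodes the phosphatase SHP-1, differed by -0.03 log2, and Ptpn22, a phosphatase of LCK and ZAP70, by -0.02 (limma adjusted p = 0.793 and 0.885). Of the 12 negative regulators 10 had a difference below 0, and their median was -0.05 log2, beside -0.03 over all tested genes. In 5 of the 12 the genotypes did not overlap, 4 with KO below and 1 with KO above, while over all tested genes 20.3% did not overlap, 13.5% with KO below and 6.79% with KO above.

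The chains of the receptor complex are described next. Cd3e, which encodes CD3 epsilon, stood at 12.46, 12.47, 12.49 and 12.45 log2 in KO and at 12.50, 12.45, 12.55 and 12.48 in WT. Cd3g, for CD3 gamma, stood at 12.52, 12.55, 12.50 and 12.51 in KO and at 12.53, 12.58, 12.59 and 12.53 in WT. Cd3d, for CD3 delta, stood at 11.01, 10.88, 10.94 and 10.97 in KO and at 10.93, 11.10, 11.14 and 11.10 in WT. The genotypes overlapped for all 3 chains. Their differences were -0.03, -0.04 and -0.12 log2 (limma adjusted p = 0.685, 0.583 and 0.222). Over the 3 chains the 95% confidence intervals of the difference reached from -15.8% to 4.72%.

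Among the proximal kinases Zap70 came nearest to a call. It stood at 10.37, 10.40, 10.43 and 10.48 log2 in KO and at 10.53, 10.55, 10.52 and 10.55 in WT, with every KO array below every WT array (log2 -0.11, limma adjusted p = 0.125). Fyn differed by -0.06 and Txk, a TEC family kinase of T cells, by 0.12 log2, and both overlapped between the genotypes (limma adjusted p = 0.536 and 0.280).

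The adaptors also differed by less than their spread could separate. Lat, the membrane scaffold of the signalosome, differed by -0.04 log2, and Lcp2, which encodes SLP-76, by -0.10. Grb2, which links LAT to the Ras exchange factor SOS1, differed by -0.09, and Themis, an adaptor needed in thymocyte selection, by -0.06. Limma adjusted p ran from 0.296 to 0.625 over these 4 adaptors. Grap2, which encodes the adaptor GADS that joins LAT to SLP-76, stood at 11.68, 11.61, 11.62 and 11.61 log2 in KO and at 11.53, 11.55, 11.56 and 11.49 in WT. Its KO arrays all lay above its WT arrays, at a difference of 0.095 log2, and it was not called (limma adjusted p = 0.192).

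The branch of diacylglycerol held the largest difference of a positive component. Malt1, the paracaspase that acts with BCL10 on the way to NF-kB, stood at 9.99, 9.95, 10.21 and 10.13 log2 in KO and at 9.59, 9.65, 9.89 and 9.95 in WT. The lowest KO array lay only marginally above the highest WT array, and WT replicates 1 and 2 lay well below WT replicates 3 and 4. The difference was 0.30 ± 0.092 SE log2 (limma adjusted p = 0.0620), and omitting WT4 made it a call (adjusted p = 0.0385). Bcl10 stood at 9.88, 9.78, 9.85 and 9.87 log2 in KO and at 9.95, 9.97, 9.90 and 10.03 in WT, with KO below WT throughout (log2 -0.12, limma adjusted p = 0.146).

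Rasgrp1, the diacylglycerol-responsive Ras exchange factor of thymocytes, stood at 12.35, 12.24, 12.29 and 12.20 log2 in KO and at 12.19, 12.10, 12.17 and 12.04 in WT. Every KO array was above every WT array, and the difference of 0.14 log2 was not called (limma adjusted p = 0.115). Sos1, the other Ras exchange factor on the list, differed by -0.01 log2. Prkcq, for protein kinase C theta, differed by 0.07 and Plcg1 by -0.02 (limma adjusted p = 0.424 and 0.891).

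In the calcium branch none of the 7 members was called, and 3 stood at an unadjusted p under 0.05 in the limma fit. Stim1, the calcium sensor of the endoplasmic reticulum, stood at 9.38, 9.31, 9.33 and 9.46 log2 in KO and at 9.28, 9.20, 9.17 and 9.28 in WT. Nfatc3 stood at 11.25, 11.19, 11.27 and 11.14 in KO and at 11.11, 11.08, 11.10 and 11.05 in WT. Both were without overlap, KO above WT. Ppp3ca, the alpha catalytic subunit of calcineurin, stood at 8.74, 8.39, 8.50 and 8.68 in KO and at 8.39, 8.29, 8.21 and 8.44 in WT, with overlap. The differences were 0.14, 0.13 and 0.24 log2 for Stim1, Nfatc3 and Ppp3ca (limma adjusted p = 0.110, 0.107 and 0.0916). Orai1, the channel that STIM1 opens, differed by 0.00016 log2, Ppp3cb by 0.0081, Nfatc1 by -0.0099 and Nfatc2 by 0.0025, and the sign of these 4 changed with the scaling of the arrays.

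**Figure D3:**
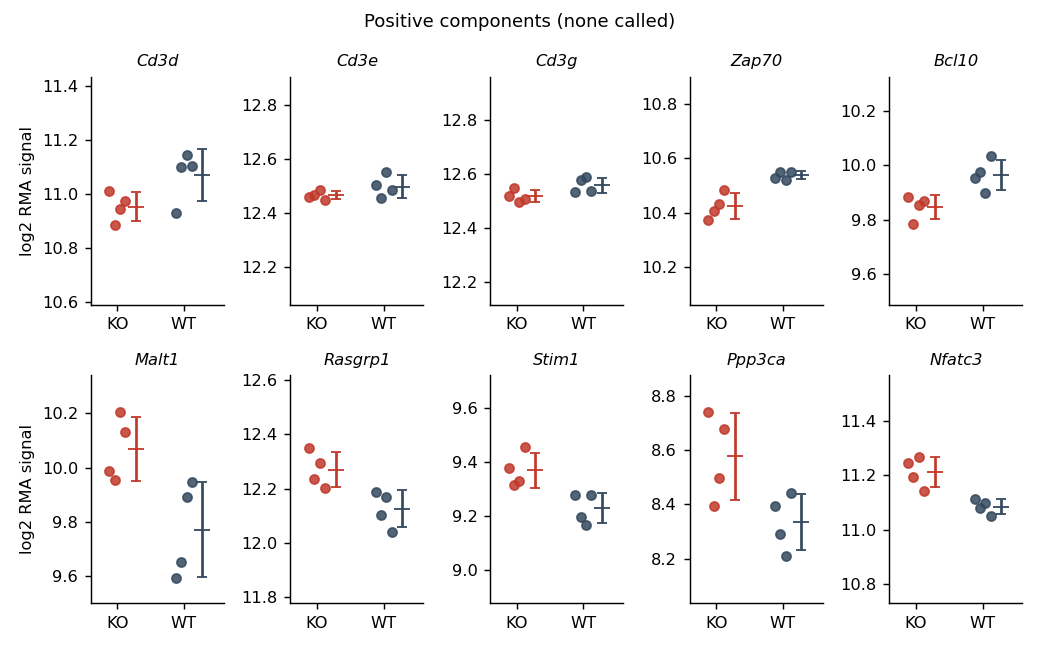
Log2 RMA signal (vertical axis) of 10 positive components in the 4 KO and 4 WT arrays (points), with the mean and SD as bars, each panel spanning the same range of signal. The CD3 chains overlap between the genotypes, while Zap70 and Bcl10 lie lower and Malt1, Rasgrp1, Stim1 and Nfatc3 higher in KO without passing the threshold.

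Over the 23 positive components 10 differences were above and 13 below 0, with a median of -0.01 log2. In 6 of the 23 the genotypes did not overlap, 4 with KO above and 2 with KO below, a share of 26.1% beside 20.3% of all tested genes. The mean over the positive components, set against its WT mean, was 0.033, -0.048, 0.022 and 0.053 log2 in KO replicates 1 to 4 and between -0.018 and 0.012 in the WT arrays. KO replicate 2 was thus the lowest of the 8 arrays and the other KO arrays the 3 highest. The mean over the 12 negative regulators was -0.064, -0.12, -0.051 and -0.046 in KO and between -0.0051 and 0.0085 in WT, without overlap. The mean over all tested genes was also lowest in KO replicate 2, at -0.055 log2, and lay at -0.014, -0.025 and -0.028 in the other KO arrays and from -0.018 to 0.019 in WT.

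**Figure D4:**
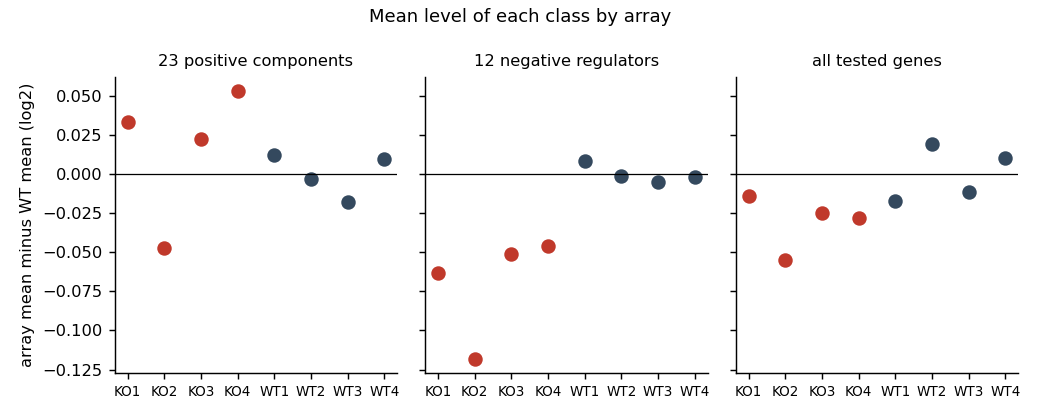
Mean log2 signal of each array minus the WT mean (vertical axis) for 23 positive components, 12 negative regulators and all tested genes, with the 4 KO arrays left of the 4 WT arrays. The negative regulators lie between -0.12 and -0.046 log2 in KO, the positive components on both sides of 0.

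Ptprc and Sh2d2a act both ways. Ptprc encodes CD45, a phosphatase that activates LCK and FYN by removing their inhibitory phosphate but can also remove the activating phosphate. It stood at 12.24, 12.27, 12.26 and 12.26 log2 in KO and at 12.33, 12.30, 12.27 and 12.28 in WT, with a difference of -0.04 (limma adjusted p = 0.608). Sh2d2a, which encodes the LCK-binding adaptor TSAd, stood at 10.99, 11.01, 11.17 and 11.20 in KO and at 11.28, 11.24, 11.31 and 11.34 in WT. All KO arrays were below all WT arrays, by a mean of -0.20 ± 0.061 SE log2 (limma adjusted p = 0.0608). Omission of KO4 brought Sh2d2a to an adjusted p of 0.0484.

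A further list of 89 genes of the same pathway, which includes Grap2, gave 69 tested genes, of which 3 rose and 9 fell (17.4% called, beside 13.0% of all tested genes). Another 18 were not analysed here, and Gab2 and Rnf128 lay below the filter. Trat1, a transmembrane adaptor that associates with the TCR, rose 1.23-fold, Tec, a kinase related to TXK, 1.27-fold, and Fyb, the adaptor ADAP that links the TCR to integrins, 1.16-fold. Over all tested genes 8.53% were called lower and 4.45% higher, and no part of the further list was tested against these shares. Of 19 tested genes listed there as negative 6 fell and 0 rose. They were Nedd4, a ubiquitin ligase, at 1.35-fold lower in KO, Nf1, which accelerates GTP hydrolysis by Ras, at 1.27-fold, Ptpn7, a phosphatase of ERK, at 1.25-fold, Ubash3b, a relative of Ubash3a, at 1.21-fold, the lectin Lgals9 at 1.14-fold and Ptpn11 at 1.14-fold. Ptpn11 encodes SHP-2, which is also known to promote Ras signalling. The class negative is that of the list, was not tested here, and may not hold for each gene, Nedd4 among them. Outside the negative genes Vav3, a guanine nucleotide exchange factor, fell 1.38-fold, Tespa1, an adaptor of thymocyte development, 1.22-fold, and Arhgef6, an exchange factor of RAC and CDC42, 1.19-fold. Limma adjusted p ran from 0.00143 for Nedd4 to 0.0431 for Ptpn11. Cd4 and Vav1 differed by -0.01 and -0.00031 log2. The number of genes called on this list was 5 to 8 when a single array was left out, 12 with all arrays.

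The label of the cells was checked on the same arrays. Cd4 averaged 12.26 log2 in KO and 12.27 in WT, and Cd2, Zbtb7b, Lef1 and Bcl11b, the other measured markers of CD4SP and T cells, were not called either (summed linear signal of the list 15659 to 16592 in KO and 16641 to 16919 in WT). Some markers of other cells differed between the genotypes. Of the CD8 lineage 2 of 5 tested genes fell (Cd8a and Xcl1), with a sum of 2014 to 2528 in KO and 2574 to 3176 in WT. Cd8a and Cd8b1 carry most of this sum, and also most of the sum of the double-positive list, which shares them. Of the double-positive list 1 of 6 fell, again Cd8a, while Rag2, Dntt, Ptcra, Arpp21 and Cd8b1 were not called (2017 to 2607 in KO and 2583 to 3286 in WT). Among markers of regulatory T cells 2 of 7 fell, Tnfrsf4 and Tnfrsf18 (2841 to 3415 in KO and 3538 to 3894 in WT). Foxp3, Il2ra, Ikzf2, Ctla4 and Lrrc32 were not called. Among those of natural killer and innate-like T cells 2 of 3 tested fell, Zbtb16 and Nkg7 (357 to 403 in KO and 448 to 748 in WT). Ncr1, Klrb1c, Klrk1, Gzma and Cd160 lay below the filter. Of the B cell list Ighm, which carries most of the sum, rose (3276 to 3591 in KO and 2131 to 2395 in WT), Cd79b was not called (6.88 log2 in KO and 6.83 in WT, limma adjusted p = 0.832), and Cd79a, Ms4a1, Pax5, Cd22 and Blnk lay below the filter. Of the stromal and endothelial list 1 of 5 tested genes rose, Pecam1, which carries most of the sum (2276 to 2433 in KO and 1962 to 2225 in WT), while Krt8, Col1a1, Col3a1 and Cdh5 were not called. Of the dissociation list Jun rose and Egr1 fell (4457 to 8752 in KO and 4627 to 5852 in WT). No myeloid gene was called among 5 tested (502 to 636 in KO and 496 to 573 in WT), and the 1 measured erythroid gene lay below the filter. Of 10 proliferation genes 7 fell (5148 to 5867 in KO and 6206 to 7502 in WT). The mean of the heat-shock genes Hspa1a and Hspa1b was 10.34, 9.79, 4.57 and 8.25 log2 in KO and 5.27, 6.36, 8.58 and 6.74 in WT, and with it as a covariate only Sla among the members was called (adjusted p = 0.0278). The part of these cell types and of proliferation in the differences of the members was not tested. In sorted bulk cells, fewer cells of a type and less RNA per cell cannot be told apart.

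**Figure D5:**
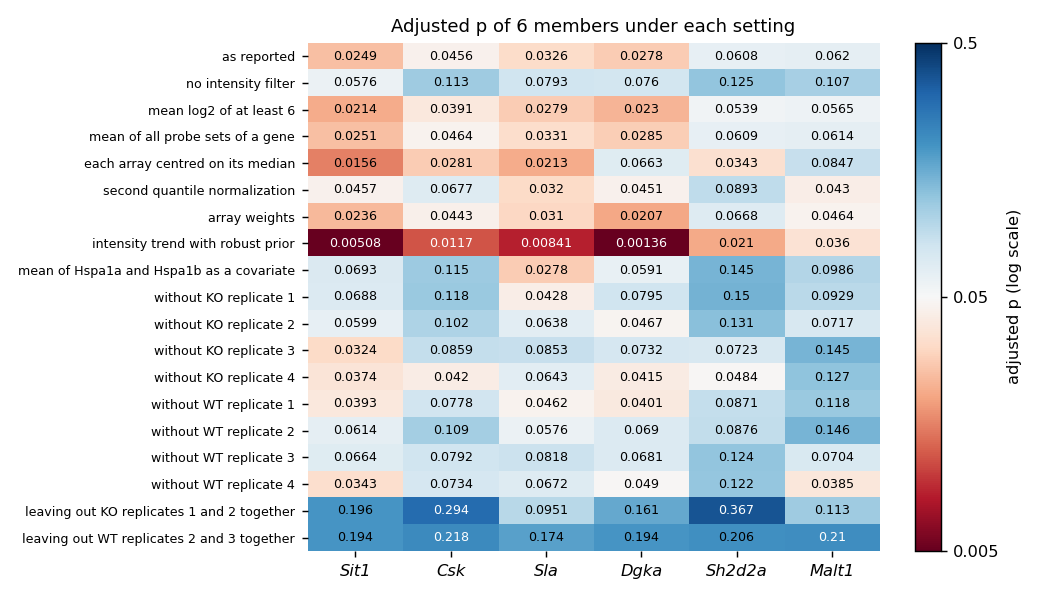
Benjamini-Hochberg adjusted p of limma (number and colour, on a log colour scale, with 0.05 as white) for 6 members (columns) under each way of processing (rows). In the row as reported Sit1, Csk, Sla and Dgka are under 0.05, Sh2d2a stands at 0.0608 and Malt1 at 0.0620, and with no intensity filter all 6 are above 0.05.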

How the data were processed

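RNA of sorted CD4SP thymocytes was amplified, biotin-labelled and hybridised to Mouse Gene 2.0 ST arrays, 1 array per sample, per the labels. The submitters' processing notes name RMA and Affymetrix Expression Console 1.1, and the values the authors deposited are log2 signals of probe sets. No source used here gives the genome build or any filter. RMA equalizes the distribution of probe signal over arrays, so changes are relative to the other genes, and background signal compresses small differences. The deposited probe set values were not fully equal between arrays, with array medians from 5.52 to 5.59 log2. Precision is limited by the number of arrays.

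Gene names came from the platform annotation. Of 41345, 23521 carry 1 symbol, and the brightest per gene stood for 22180 genes. The 11585 with a mean log2 signal of 5.56 or more (the median over probe sets) were tested with limma 3.58.1 in R 4.3.3 (lmFit, eBayes, two-sided, genotype as the only term, Benjamini-Hochberg adjustment over these genes). Confidence intervals are at 95%. The fit was tested on simulated data. Replicates were numbered in order of deposit and pair no samples. Members and lists were chosen with earlier results of these data known. Genes were named by a fixed rule: every member is accounted for, called ones by array, together with every called gene of the further pathway list. The alternatives concerned the filter, the probe set, the scaling, weights, the prior, the heat-shock covariate, the threshold and the arrays used. RefSeq promoters served for sequence only.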

Additional observations from a re-analysis of the deposited data

Results flagged for a closer look

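In 2 of 74 groups of 4 arrays, over the 37 tested members in both genotypes, 1 array lay far from the others of its genotype, and chance alone gives about 1 in 20 such groups. Both concern Cd5, a surface receptor that restrains TCR signalling. In KO replicate 3 Cd5 stood at 12.30 log2, above the other KO arrays at 12.19 to 12.20. In WT replicate 2 it stood at 12.33, above the other WT arrays at 12.25 to 12.26.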

How the results depend on the processing

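No paired analysis was possible because the labels number no replicates across the genotypes. Over the tested members and the alternatives, 613 of 703 recomputed differences kept their direction and their side of the threshold, 42 lost the call, 11 gained it and 37 changed sign. Most of the 703 concern members that were not called and so had no call to lose. All 42 losses fell on the 4 called members. Of 19 alternatives each, the call ended in 9 for Sit1, 13 for Csk, 10 for Sla and 10 for Dgka. With no intensity filter 0 negative regulators were called higher and 0 lower. In that setting 22180 genes entered both the fit and the adjustment, 4.15% of them were called, and the further pathway list held 4 calls. With each array centred on its median 0 negative regulators were called higher, and the medians were -0.047 log2 for the positive components and -0.084 for the negative regulators, while the median over all tested genes also moved, to -0.064 from -0.030. This scaling moved the share of higher calls over all genes to 22.5%, and a second quantile normalization moved it to 49.5%, from 34.3%. Positive components called higher numbered 3 after a second quantile normalization (Malt1, Stim1 and Ppp3ca), where negative regulators called lower numbered 2 because Csk lost its call, 1 with array weights (Malt1) and 3 with an intensity trend and robust prior (Malt1, Rasgrp1 and Nfatc3). With the mean of all probe sets of a gene the median of the negative regulators was -0.084. Only Dgkz among the members has 2 probe sets, and its difference alone changed, to -0.16 log2. With the heat-shock covariate 0 negative regulators were called higher, 1 lower and 4 further pathway genes. At an adjusted p under 0.01 the numbers were 0 higher, 0 lower and 3. Leaving out KO replicates 1 and 2 together, or WT replicates 2 and 3 together, left 0 negative regulators higher, 0 lower and 1 further pathway gene. When a single array was left out, negative regulators called lower ranged from 0 to 2, those called higher from 0 to 1, positive components called higher from 0 to 1 and further pathway genes from 5 to 8. Counting Ptprc and Sh2d2a with either class changed no count of calls with all arrays. Otherwise the cause of these changes was not tested.

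Changes of sign concerned members that differed by under 0.04 log2. After a second quantile normalization Plcg1 stood at 0.0028, Sos1 at 0.019 and Nfatc1 at 0.0040 log2. With array weights Plcg1 stood at 0.0016. With the heat-shock covariate Plcg1 stood at 0.0052 and Nfatc1 at 0.0077. With median centring Orai1 stood at -0.034, Ppp3cb at -0.026, Nfatc2 at -0.032 and Cblb at -0.020. Leaving out KO replicates 1 and 2 gave Plcg1 0.039, Sos1 0.0053, Nfatc1 0.0050 and Ptpn6 0.026. Leaving out WT replicates 2 and 3 gave Orai1 -0.027, Nfatc2 -0.092, Cd6 0.016 and Cblb -0.052. When a single array was left out, the ranges were -0.050 to 0.032 for Plcg1, -0.041 to 0.0041 for Sos1, -0.037 to 0.035 for Orai1, -0.0039 to 0.020 for Ppp3cb, -0.047 to 0.034 for Nfatc1, -0.041 to 0.049 for Nfatc2, -0.081 to 0.014 for Ptpn6, -0.046 to 0.0082 for Ptpn22 and -0.023 to 0.036 for Cblb.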
